A study of Mus musculus with 12 samples.

Results

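The 10 genes described here encode transcription factors that mark parts of the hypothalamus: Nkx2-1, Nkx2-4, Sim1, Otp, Nr5a1, Six3, Six6, Hmx2, Hmx3 and Foxd2. They were taken by symbol from a table of raw read counts with 78334 Ensembl gene IDs, and each symbol matched 1 row, so all 10 were found. The genes were chosen by their names with earlier results of these libraries known, and the measured values behind that choice were their counts in the curcumin libraries, near 0 for most of them in 1 library and for Foxd2 in all 3, so their levels in curcumin and every comparison with curcumin are given as descriptions. Counts of calls by a test are printed beside them, but these values chose the genes, so nothing is read from those counts. Bulk RNA sequencing had been done on the hypothalamus of male C57BL/6 mice, with 12 libraries in 4 groups. The curcumin group (n = 3) and the garlic group (n = 2) held mice with induced diabetes gavaged daily for 28 days with curcumin, a polyphenol of turmeric, at 50 mg/kg, or with aged garlic extract at 200 mg/kg. The diabetes group (n = 4) had the same induction and received vehicle, and the control group (n = 3) received vehicle and standard diet. Induction was 1 injection of streptozotocin, a toxin of pancreatic beta cells, at 70 mg/kg on postnatal day 2, then a diet with 60% of energy from fat for 8 weeks from 3 weeks of age. The injection and the diet are given together for the diabetes groups and neither is given for control, so the contributions of the injection and of the diet to any difference from control cannot be told apart. The protocol starts gavage in week 7 of the diet and the design text after 11 weeks, and this is unresolved. No age at sampling is stated.

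Transcription factors of this kind divide the embryonic forebrain into territories and then keep the identity of the neurons that arise there. In the hypothalamus, Nkx2-1 marks the ventral, tuberal territory, Sim1 and Otp specify the paraventricular and supraoptic neurons that make oxytocin and vasopressin, Nr5a1 marks the ventromedial nucleus, and Hmx2 and Hmx3 act in arcuate neurons that make growth hormone releasing hormone. Six3 and Six6 are paralogs of the anterior forebrain and eye field, and Six3 is also made outside the hypothalamus, including in the striatum.

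Promoter sequence from RefSeq on GRCm38.p6 was matched by symbol for 9 of the 10 genes, all but Nr5a1. Six3 is shown because it alone kept its level in the library that lacked the others, Otp and Nkx2-1 because they were the most abundant of those lost there, and Foxd2 because it was at or near 0 in every curcumin library. Each run is 5′ to 3′ on the gene's strand, covers the part of the 250 bases before the annotated start that holds no annotated exon base, and has CCAAT boxes (CCAAT or, on the other strand, ATTGG) in capitals.
Six3, chr17:85620584-85620789, + strand: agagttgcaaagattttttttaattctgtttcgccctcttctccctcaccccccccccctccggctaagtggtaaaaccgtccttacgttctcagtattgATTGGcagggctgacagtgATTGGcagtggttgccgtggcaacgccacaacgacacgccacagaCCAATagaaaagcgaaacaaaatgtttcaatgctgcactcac
Otp, chr13:94875386-94875601, + strand: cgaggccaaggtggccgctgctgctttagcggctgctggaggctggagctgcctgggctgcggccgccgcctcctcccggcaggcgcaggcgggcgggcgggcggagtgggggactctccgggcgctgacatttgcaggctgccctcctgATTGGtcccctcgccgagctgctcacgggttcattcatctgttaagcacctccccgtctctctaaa
Nkx2-1, chr12:56536909-56537158, - strand: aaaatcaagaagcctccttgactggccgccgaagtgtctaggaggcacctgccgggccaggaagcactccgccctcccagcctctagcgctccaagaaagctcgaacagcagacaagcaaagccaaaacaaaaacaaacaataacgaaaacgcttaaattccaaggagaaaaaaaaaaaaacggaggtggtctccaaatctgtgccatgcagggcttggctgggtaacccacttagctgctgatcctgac
Foxd2, chr4:114908899-114909148, - strand: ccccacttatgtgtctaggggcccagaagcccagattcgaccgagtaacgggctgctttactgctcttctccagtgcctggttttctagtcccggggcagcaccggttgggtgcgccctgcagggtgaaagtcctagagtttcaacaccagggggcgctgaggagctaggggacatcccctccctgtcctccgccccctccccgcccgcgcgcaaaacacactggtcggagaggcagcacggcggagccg
A set of 4 short motifs was searched on both strands of the full window of 250 bases in all 27025 promoters of that table. Among the first listed promoters of the 9 genes, CCAAT was found in 3, with 3 sites in Six3, 2 in Six6 and 1 in Otp, against 34.5% of all promoters; a second listed promoter of Hmx2 held 1 site. None of the first listed promoters held CAAGTG, the core bound by Nkx2 factors, TAATTA, a core of homeodomain sites, or AAGGTCA, the half-site of Nr5a1, which were found in 11.6%, 4.90% and 4.05% of all promoters. The promoters of these genes had a median GC content of 62.8%, against 52% over all promoters. The searches say only which letters these windows hold.

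Library totals ran from 18735948 to 21539173 counts in curcumin, 18332013 to 21952253 in garlic, 12950017 to 30271706 in diabetes and 17575625 to 23470800 in control. Levels below are CPM, each gene's count relative to its library total after TMM scaling. Some libraries stood apart in ways that touch these genes. Curcumin replicate 2 held almost none of 9 of the 10 factors although it is labelled hypothalamus, and each curcumin result is therefore given with and without it. Diabetes replicate 4 had a summed level of 866 CPM over 11 pituitary genes, against 0.939 to 17.6 CPM in the other 11 libraries, with Gh, growth hormone, at 732 CPM. Of 17622 genes that averaged at least 1 CPM, curcumin replicate 1 stood below every other library for 20.4% and above every other library for 20.2%; among the 11 libraries without curcumin replicate 2 it was the lowest for Otp and Hmx2. Diabetes replicate 3 was above every other library for 4 of the factors (14.4% of all genes) and below for 1 (13.3%). In bulk tissue, fewer cells of a type and less RNA per cell cannot be told apart, and this holds for every value below.

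**Figure D1:**
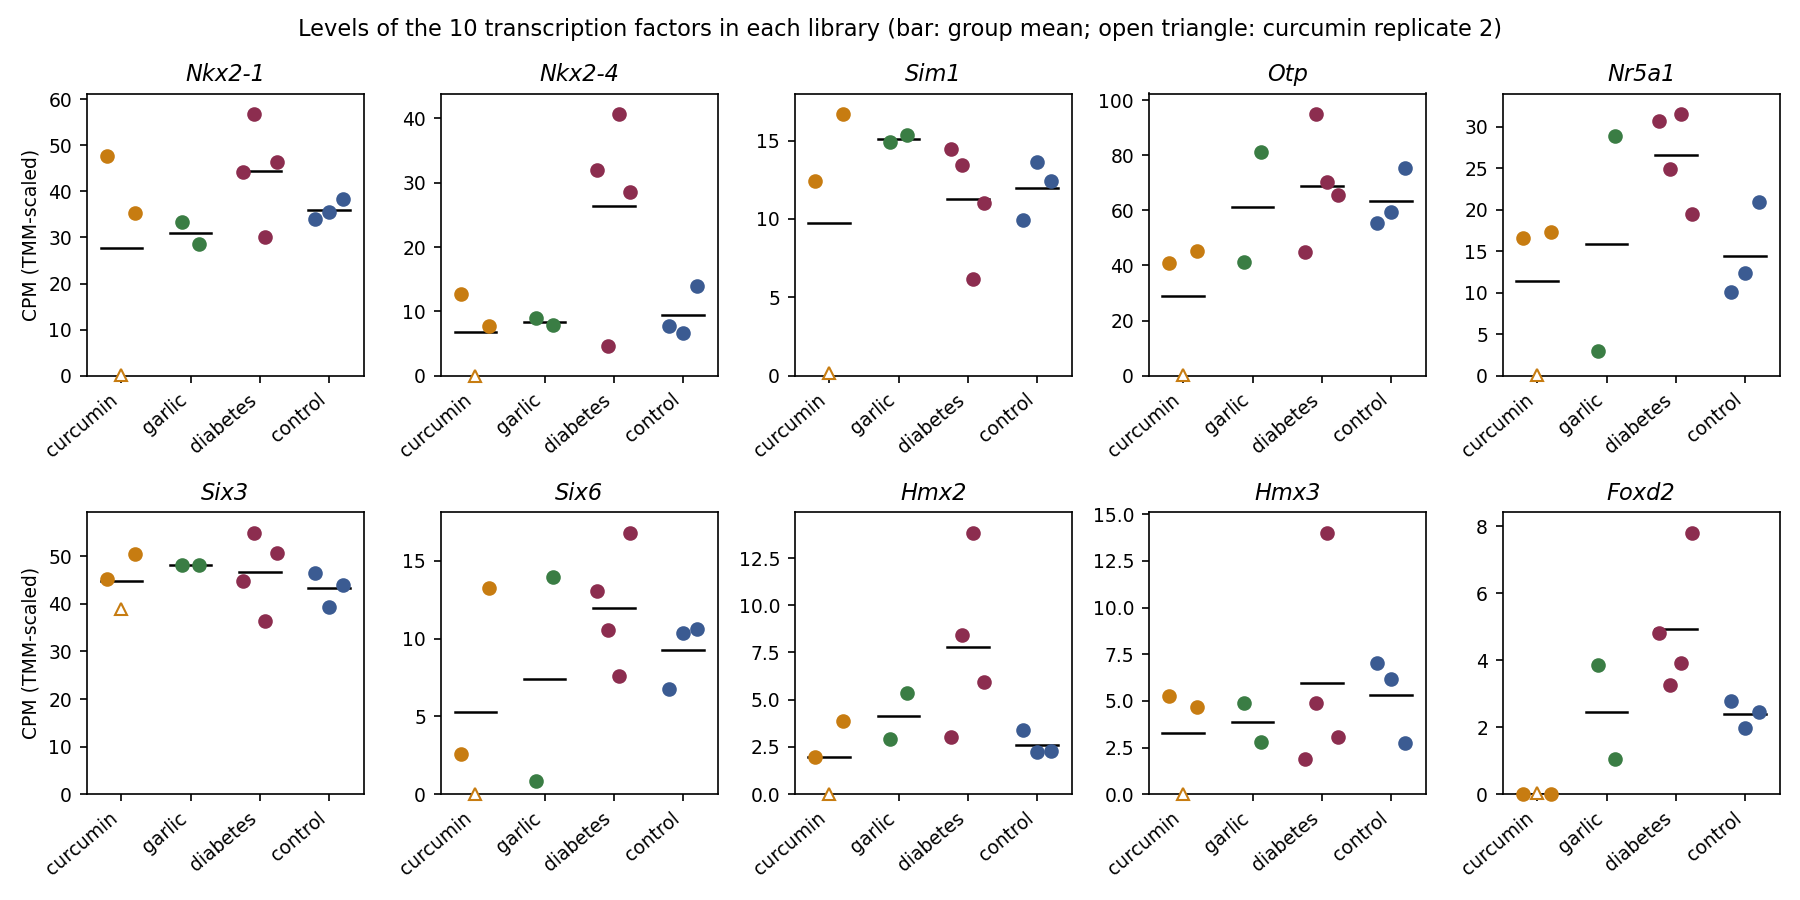
Level of each of the 10 transcription factors in every library, in TMM-scaled CPM on a linear axis that starts at 0; points are libraries, bars are group means and the open triangle is curcumin replicate 2. The triangle lies at the bottom of every panel except that of Six3, where it stands at 39.0 CPM; Foxd2 is at 0 in the other 2 curcumin libraries as well.

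Among the factors of the ventral territory, Nkx2-1 (ENSMUSG00000001496, chromosome 12), which is required for the ventral hypothalamus to form, stood at 47.6, 0.0496 and 35.2 CPM in curcumin replicates 1 to 3 and 33.4 and 28.6 CPM in garlic replicates 1 and 2. It was at 44.3, 56.7, 30.0 and 46.4 CPM in diabetes replicates 1 to 4 and at 33.9, 35.5 and 38.4 CPM in control replicates 1 to 3. Leaving out curcumin replicate 2, the highest library was 1.99 times the lowest, and only garlic lay wholly below control. Its paralog Nkx2-4 (ENSMUSG00000054160, chromosome 2), which is made in the same territory, was far more variable. Its levels were 12.8, 0 and 7.72 CPM in curcumin and 8.94 and 7.87 CPM in garlic, against 31.9, 4.61, 40.6 and 28.6 CPM in diabetes and 7.80, 6.68 and 14.0 CPM in control. Diabetes replicates 1, 3 and 4 were above every other library, whereas diabetes replicate 2 had the lowest level outside curcumin replicate 2. The highest of the other 11 libraries was 8.81 times the lowest.

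Sim1 and Otp, the pair needed for the neurons that make vasopressin and oxytocin, were detected in all libraries, at low counts in curcumin replicate 2. Sim1 (ENSMUSG00000019913, chromosome 10), a bHLH-PAS factor whose loss of 1 copy makes mice obese, was at 12.4, 0.149 and 16.7 CPM in curcumin and 14.9 and 15.3 CPM in garlic. Its levels were 14.5, 13.4, 6.17 and 11.1 CPM in diabetes and 9.91, 13.6 and 12.5 CPM in control. Both garlic libraries were above every diabetes and every control library. Otp (ENSMUSG00000021685, chromosome 13), a homeodomain factor, was at 40.9, 0.198 and 45.1 CPM in curcumin and 41.4 and 81.1 CPM in garlic. In diabetes it was at 44.9, 94.8, 70.4 and 65.5 CPM and in control at 55.6, 59.4 and 75.2 CPM. Every curcumin library was below every control library, and curcumin overlapped diabetes only through curcumin replicate 3 and diabetes replicate 1. The highest of the 11 libraries was 2.70 times the lowest for Sim1 and 2.32 times for Otp.

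Nr5a1 (ENSMUSG00000026751, chromosome 2), the nuclear receptor that marks the ventromedial nucleus, stood at 16.6, 0.0496 and 17.4 CPM in curcumin and 2.92 and 28.9 CPM in garlic. It was at 30.7, 24.9, 31.5 and 19.5 CPM in diabetes and at 10.1, 12.4 and 20.9 CPM in control. The garlic libraries lay near both ends of the range outside curcumin replicate 2, and every curcumin library was below every diabetes library. Nr5a1 is also made in pituitary gonadotrophs, and the part of the pituitary genes of diabetes replicate 4 in its value there was not tested. Fezf1, a zinc finger factor needed for the same nucleus, was likewise lowest in garlic replicate 1 among the 11 libraries, at 6.77 CPM, against 34.4 CPM in garlic replicate 2.

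Six3 (ENSMUSG00000038805, chromosome 17), a repressor that shapes the anterior forebrain, was the most even of the 10. It was at 45.1, 39.0 and 50.5 CPM in curcumin and at 48.1 CPM in both garlic libraries, against 44.8, 54.9, 36.4 and 50.6 CPM in diabetes and 46.4, 39.4 and 43.9 CPM in control. Its coefficient of variation over the 11 libraries without curcumin replicate 2 was 11.3%, against 22.1% to 78.5% for the other 9 genes. Its paralog Six6 (ENSMUSG00000021099, chromosome 12), which acts in hypothalamus, pituitary and retina, varied 20.0-fold over the same libraries. Six6 was at 2.60, 0 and 13.3 CPM in curcumin and 0.841 and 14.0 CPM in garlic, against 13.0, 10.5, 7.57 and 16.8 CPM in diabetes and 6.79, 10.4 and 10.6 CPM in control. Garlic replicate 1 and curcumin replicate 1 were low, at levels below every diabetes and control library, while the third curcumin library and the other garlic library were within the diabetes range.

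Hmx2 (ENSMUSG00000050100) and Hmx3 (ENSMUSG00000040148), homeodomain paralogs that lie next to each other on chromosome 7, were low and variable. Hmx2 was at 1.99, 0 and 3.86 CPM in curcumin and 2.92 and 5.35 CPM in garlic, against 3.00, 8.44, 13.8 and 5.94 CPM in diabetes and 3.41, 2.21 and 2.26 CPM in control. Hmx3 was at 5.25, 0 and 4.65 CPM in curcumin and 4.91 and 2.78 CPM in garlic, against 1.87, 4.89, 14.0 and 3.05 CPM in diabetes and 7.04, 6.18 and 2.72 CPM in control. Both were highest in diabetes replicate 3 and both were at 0 in curcumin replicate 2. Foxd2 (ENSMUSG00000055210, chromosome 4), a forkhead factor better known from the embryonic kidney, had 0, 1 and 0 counts in curcumin replicates 1 to 3, or 0.0496 CPM in replicate 2. A count of 0 allows up to 0.144 CPM in replicate 1 and 0.160 CPM in replicate 3 (3 counts of the library total, counting error only). Foxd2 was at 3.85 and 1.05 CPM in garlic, at 4.80, 3.26, 3.91 and 7.80 CPM in diabetes and at 2.78, 1.99 and 2.44 CPM in control, so that no curcumin library reached any other.

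Per kilobase of exon, the order of the median level over the 11 libraries without curcumin replicate 2 was Otp (20.6 RPKM), Nkx2-1 (12.5), Six3 (8.52), Nkx2-4 (5.18), Nr5a1 (4.59), Hmx3 (3.36), Six6 (2.62), Sim1 (1.56), Foxd2 (1.07) and Hmx2 (1.06 RPKM). The ranges over those libraries overlapped for each pair of neighbours in this order, the closest case being Nkx2-1 with a lowest level of 10.05 RPKM and Six3 with a highest level of 10.1 RPKM. In curcumin replicate 2, Six3 stood at 7.16 RPKM, and Otp, the next highest there, at 0.0689 RPKM.

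In counts, curcumin replicate 2 held 786 reads of Six3, 4 of Otp, 3 of Sim1, 1 each of Nkx2-1, Nr5a1 and Foxd2, and 0 of Nkx2-4, Six6, Hmx2 and Hmx3. The 9 genes other than Six3 came to 10 reads (0.496 CPM) in it, against 2506 to 5354 reads (114 to 222 CPM) in each of the other libraries. Relative to the other 11 libraries pooled, the level in the others was 794 times that in curcumin replicate 2 for Nkx2-1 (95% exact counting interval 142 to 31362), 300.4 times for Otp (117 to 1103), 87.6 times for Sim1 (30.0 to 425) and 387 times for Nr5a1 (69.4 to 15279). With 3 counts as the floor of that library, Nkx2-4 was at least 102-fold, Six6 at least 64.8-fold, Hmx3 at least 32.0-fold and Hmx2 at least 29.0-fold lower in it. Six3 differed by 1.19 times (1.11 to 1.28). These intervals cover counting error of the pooled reads only and leave out the spread between libraries. No molecular identifiers are described, so reads are not known to be separate molecules. Of the 10 factors, 8 were below all other libraries in curcumin replicate 2, against 5.66% of the 17622 genes. The counts in this library chose the genes, so nothing is read from that difference. The exceptions were Six3, within the range of the others, and Foxd2, which was at 0 in both other curcumin libraries. Six3 made up 98.7% of the summed CPM of the 10 genes there, against 14.3% to 29.7% elsewhere. Without curcumin replicate 2, the summed level of the 10 genes was 185 and 194 CPM in curcumin and 162 and 233 CPM in garlic, against 234 to 276 CPM in diabetes and 184 to 223 CPM in control.

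**Figure D2:**
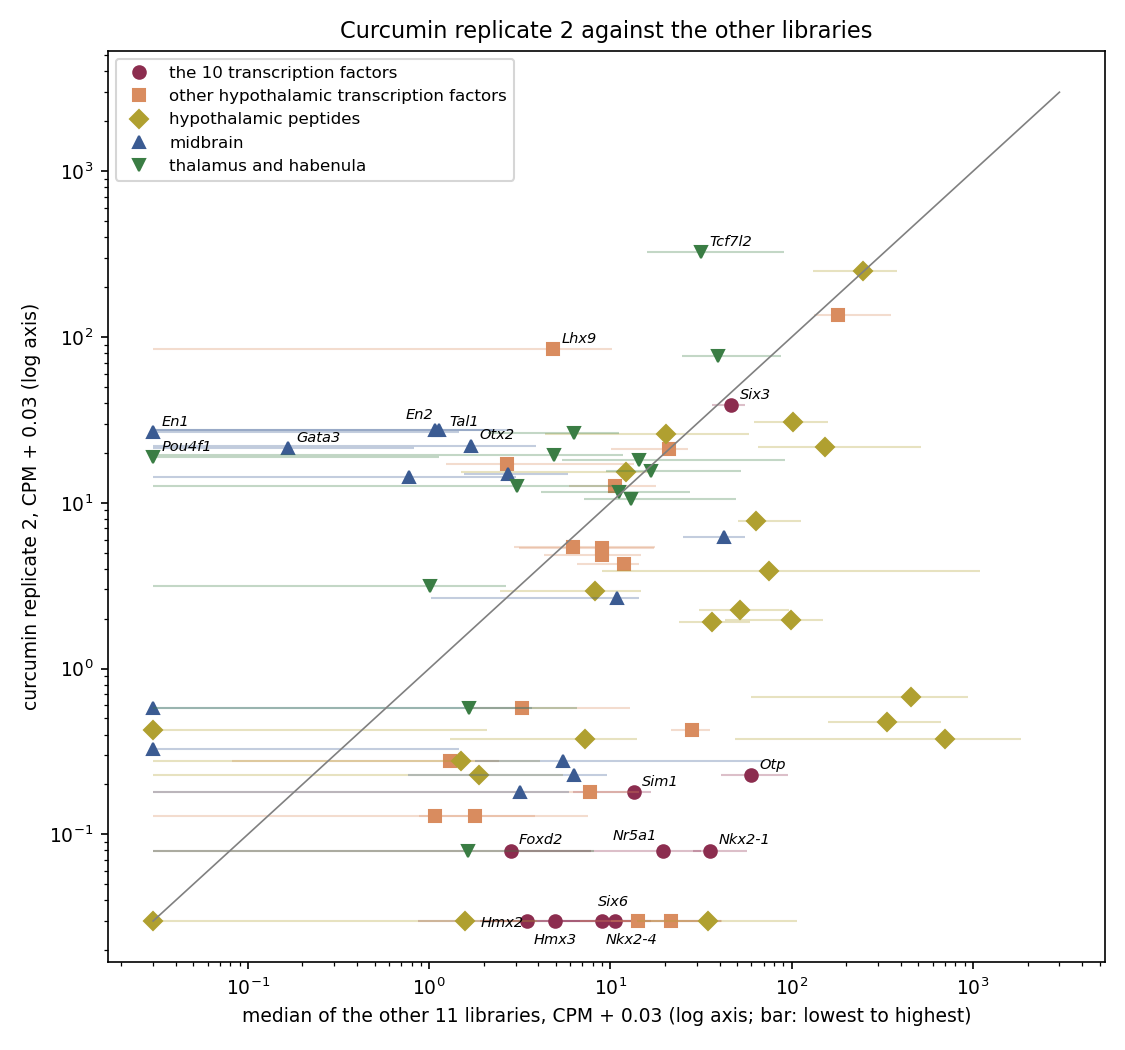
Level in curcumin replicate 2 against the median of the other 11 libraries, both as CPM + 0.03 on log axes; horizontal bars run from the lowest to the highest of the 11, and the diagonal marks equal levels. Of the 10 factors, Six3 (39.0 CPM) lies by the diagonal and the other 9 far below it, while En1 (26.7 CPM), Tal1 (27.6 CPM), Tcf7l2 (325 CPM) and Lhx9 (84.6 CPM) lie far above.

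Markers of neighbouring regions moved with the loss of the 9 factors in that library, and their part in it was not tested. Over 14 midbrain genes the summed level was 165 CPM in curcumin replicate 2, against 52.1 to 151 CPM in the others. The 151 CPM was that of curcumin replicate 1, where Slc6a3 alone was at 71.5 CPM. Curcumin replicate 3 had a sum of 61.1 CPM. Of the 14, 7 were above and 3 below all other libraries in curcumin replicate 2. Over the 17622 genes that averaged at least 1 CPM, the shares were 11.5% and 5.66%. The homeodomain factors En1 and En2, which pattern the midbrain, were at 26.7 and 27.6 CPM in it and at most 1.43 and 2.86 CPM elsewhere. Tal1 and Gata3, which specify inhibitory neurons of the midbrain, were at 27.6 and 21.3 CPM, against at most 2.23 and 0.792 CPM. The markers of dopamine neurons Th, Slc6a3 and Lmx1b were instead below every other library, at 6.20, 0.248 and 0.198 CPM. None of the 14 midbrain genes was at 0 in curcumin replicate 2, garlic replicate 1 or control replicate 1. Foxa1, Lmx1b, Slc6a3, Foxa2 and Pitx3 had only 3 to 11 reads in curcumin replicate 2. Over 13 genes of the thalamus and habenula the sum was 538 CPM, against 91.1 to 422 CPM. Of the 13, 6 were above and 0 below all other libraries, again against 11.5% and 5.66%. Tcf7l2, a Wnt effector of the thalamus, made up most of that sum at 325 CPM, against 15.8 to 90.2 CPM. Pou4f1, a factor of the habenula, was at 18.9 CPM, against at most 1.10 CPM. Prkcd, Gbx2, Rora, Plekhg1, Synpo2, Gpr151 and Nwd2 were within the range of the other libraries.

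Other genes of the hypothalamus followed the 9 factors in part. Of 21 peptide genes, 12 were below and 0 above all other libraries in curcumin replicate 2, against 5.66% and 11.5% of the 17622 genes. The sum of the 21 was 366 CPM, against 803 CPM in curcumin replicate 1, the next lowest, and up to 5448 CPM. Curcumin replicate 1 also had the lowest Avp and Oxt after curcumin replicate 2. In curcumin replicate 2, Avp and Oxt were at 0.347 and 0.645 CPM, against at least 48.7 and 59.6 CPM elsewhere. They are the vasopressin and oxytocin genes of the neurons that Sim1 and Otp specify. Pmch, the peptide of lateral hypothalamic neurons, was at 0.447 CPM, against 159 to 670 CPM, whereas Sst, somatostatin, which is made in many brain regions, was at 249 CPM, within the range of 132 to 380 CPM. Among 17 further hypothalamic transcription factors, 6 were below and 2 above all other libraries, against 5.66% and 11.5% of the 17622 genes. The count above was thus near its share over all genes. Fezf1 and Isl1, factors of the ventromedial and arcuate nuclei, were at 0 and 0.397 CPM, against at least 6.77 and 21.5 CPM. Arnt2, the dimer partner of Sim1, and Pou3f2, which acts after Sim1 in paraventricular neurons, are also made in other brain regions and were within the range of the other libraries at 137 and 21.0 CPM. Lhx9 was above it, at 84.6 CPM, against at most 10.2 CPM. General neuronal genes were not low, with a sum of 3987 CPM, against 2378 to 3470 CPM, and oligodendrocyte genes summed to 10216 CPM, against 3644 to 7089 CPM. Endothelial genes summed to 244 CPM, against 29.7 to 118 CPM, and choroid plexus genes to 8.53 CPM, against 13.4 to 42.5 CPM.

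**Figure D3:**
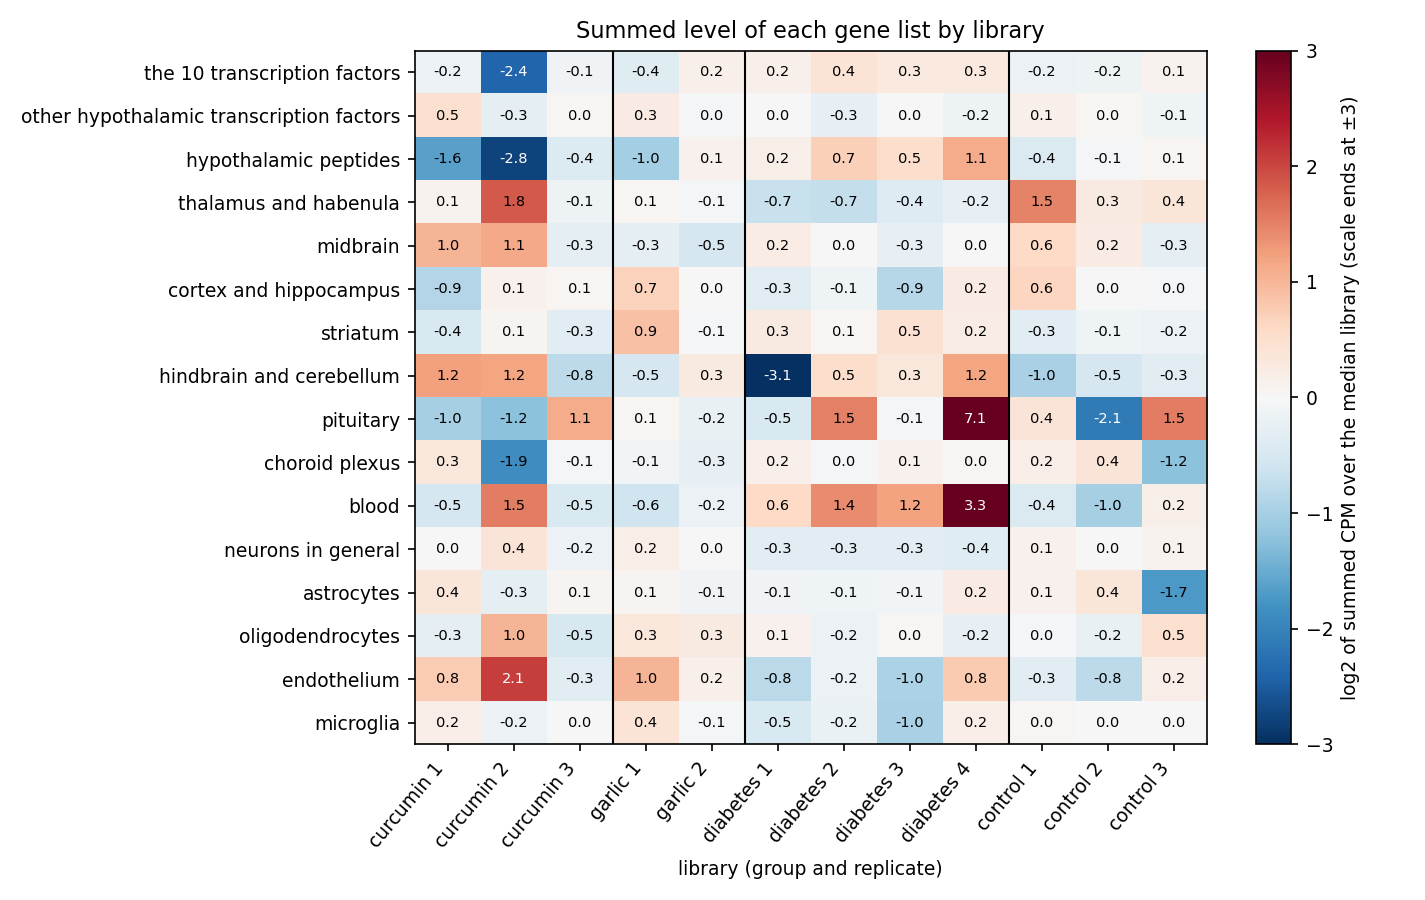
Summed CPM of each gene list in each library (columns, by group), as log2 of the sum over the median library after adding 0.5 CPM to both; colours end at 3 in either direction. Curcumin replicate 2 is low for the 10 factors, the peptides, choroid plexus and pituitary. It is high for endothelium, thalamus and habenula, blood, hindbrain and cerebellum, midbrain and oligodendrocytes. Curcumin replicate 1 is also high for midbrain and for hindbrain and cerebellum, and diabetes replicate 4 is high for pituitary and blood.

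The comparison of diabetes with control asked whether the factors differ in the diabetes model. Of the 10, 9 had a higher and 1, Sim1, a lower estimate in diabetes (Hmx3 was lower too with limma-voom), with a median log2 change of 0.34, against -0.07 over all 25562 genes tested, but none passed edgeR's quasi-likelihood test with Benjamini-Hochberg adjustment. The share of all genes called higher was 0.0156%, 0 of the 10 had an unadjusted p under 0.05 (12.3% of all genes did), and 0 were called by DESeq2, which called 475 genes higher and 53 lower, or by limma-voom, which called 724 higher and 453 lower. The largest estimates were those of Hmx2, at 7.80 ± 4.59 CPM in diabetes and 2.63 ± 0.681 CPM in control (SD, n = 4 and 3; log2 change 1.56 ± 0.95 SE, adjusted p = 0.563, edgeR), and Nkx2-4, at 26.4 ± 15.4 CPM in diabetes and 9.49 ± 3.94 CPM in control (1.48 ± 0.86, adjusted p = 0.534, edgeR). Foxd2 was at 4.94 ± 2.00 CPM in diabetes and 2.40 ± 0.399 CPM in control (1.04 ± 0.86, adjusted p = 0.757, edgeR). It was the 1 factor whose groups did not overlap, higher in diabetes, where 5.79% of all genes did so. Nr5a1 was at 26.6 ± 5.62 CPM in diabetes and 14.5 ± 5.68 CPM in control (0.88 ± 0.83, adjusted p = 0.819, edgeR), with an overlap through diabetes replicate 4 and control replicate 3. The other 6 lay between -0.08 ± 0.71 for Sim1 and 0.37 ± 0.95 for Six6, each with an adjusted p of at least 0.965 by edgeR. The gene number expected per library after thinning to the smallest total was 20133 to 22515 in diabetes and 25766 to 33157 in control, with no overlap. With it as a covariate the median of the 10 was -1.94, but without overlap gene number and group can hardly be told apart in that fit. Markers of other regions and cells had different levels in these groups as well, and their part in the values of the 10 was not tested. The median log2 change was -1.22 over 13 thalamus and habenula genes, 8 of them lower without overlap (8.93% of all genes were), and 2.35 over 5 blood genes, 4 of them higher without overlap. All 10 cortex and hippocampus genes tested and all 6 general neuronal genes had lower estimates in diabetes.

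The comparison of garlic with diabetes asked whether the extract moves the factors. Estimates were lower in garlic for 8 of the 10 and higher for Sim1 and Six3 (Six3 was lower with RLE scaling and with DESeq2), with a median log2 change of -0.66, against 0.07 over all genes, and 0 were called by edgeR's quasi-likelihood test with Benjamini-Hochberg adjustment. The share of all genes called was 0%, 10.9% of all genes and 0 of the 10 had an unadjusted p under 0.05, and 0 of the 10 were called by DESeq2, which called 34 genes higher and 398 lower, or by limma-voom, which called 70 higher and 359 lower. The gene number expected after thinning was 33125 to 34719 in garlic and 20133 to 22515 in diabetes, with no overlap. With it as a covariate the median of the 10 was 3.01 and 7 of them turned from lower to higher estimates. Without overlap, gene number and group can hardly be told apart in that fit. The estimate of largest size was that of Nkx2-4, at 8.41 ± 0.752 CPM in garlic and 26.4 ± 15.4 CPM in diabetes (SD, n = 2 and 4; -1.65 ± 1.01, adjusted p = 0.642, edgeR). Foxd2 was at 2.45 ± 1.98 CPM in garlic and 4.94 ± 2.00 CPM in diabetes (-1.01 ± 0.99, adjusted p = 0.911, edgeR). Sim1 was at 15.1 ± 0.295 CPM in garlic and 11.3 ± 3.70 CPM in diabetes (0.42 ± 0.79, adjusted p = 1, edgeR), and was the 1 factor whose groups did not overlap, higher in garlic, where 13.1% of all genes did so. With 2 garlic libraries, 1 of them decides several values: the median was -0.26 without garlic replicate 1. Nr5a1 had an estimate of -0.74 with both garlic libraries, 0.11 without replicate 1 and -3.18 without replicate 2, and Six6 of -0.70 with both, 0.21 without replicate 1 and -3.82 without replicate 2. Garlic replicate 1 also had the highest summed level of 9 striatal genes of all libraries, at 453 CPM, against 179 to 336 CPM in the others, and of 5 blood genes 4 were lower in garlic without overlap (7.58% of all genes were), with a median of -2.36. The part of these striatal and blood genes in the values above was not tested. The diabetes libraries serve in this comparison and in that with control, and the garlic values stood at 5 higher and 5 lower estimates relative to control, with a median of -0.01, against 0.00 over all genes. There, Sim1 and Six3 were higher and Nkx2-1 lower without overlap (6.63% of all genes were higher and 6.13% lower without overlap), and 0 were called by edgeR, DESeq2 or limma-voom, with 0 at an unadjusted p under 0.05, against 0% of all genes called by edgeR and 0.11% at an unadjusted p under 0.05.

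**Figure D4:**
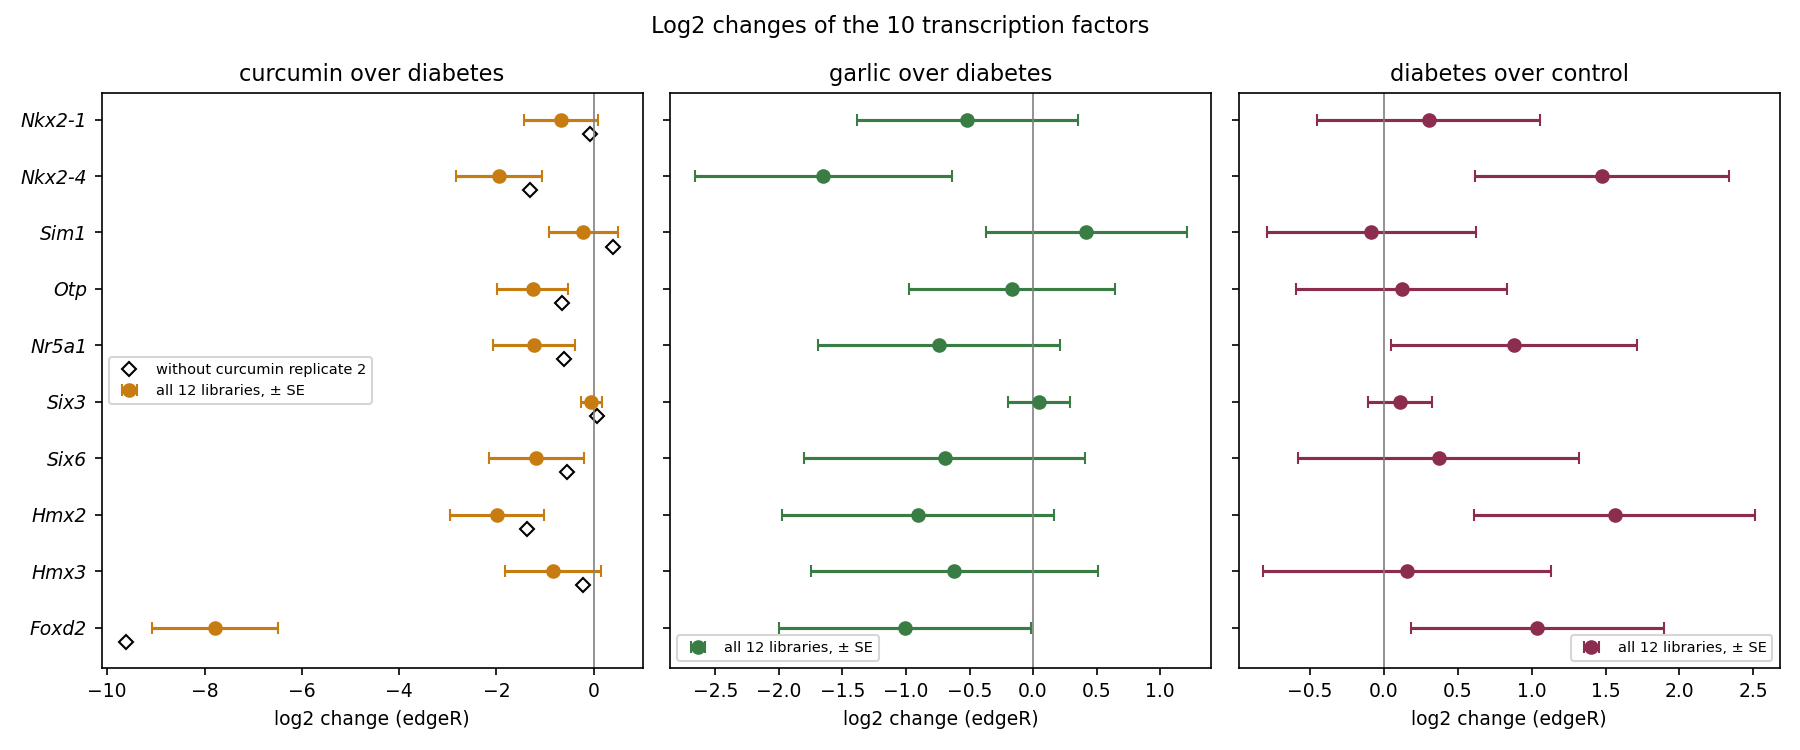
Log2 change of each of the 10 factors by edgeR, with SE bars, in curcumin over diabetes, garlic over diabetes and diabetes over control; open diamonds give the curcumin values without curcumin replicate 2. The diamonds lie closer to 0 than the filled points for 7 of the 9 genes other than Foxd2, and on the other side of 0 for Sim1 (0.39) and Six3 (0.07); the position of Foxd2 depends on the prior count, since curcumin held 1 read of it.

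For curcumin against diabetes, the estimates of all 10 were lower in curcumin, with a median log2 change of -1.20 (-2.40 by limma-voom), against 0.07 over all genes. This rests in part on curcumin replicate 2: without it the median was -0.58 and 8 of the 10 were lower, Sim1 (0.39) and Six3 (0.07) being higher. Hmx2 was at 1.95 ± 1.93 CPM in curcumin and 7.80 ± 4.59 CPM in diabetes (SD, n = 3 and 4; log2 change -1.99 ± 0.97 SE), or -1.37 without that library. Nkx2-4 was at 6.83 ± 6.43 CPM in curcumin and 26.4 ± 15.4 CPM in diabetes (-1.95 ± 0.88), or -1.32 without it. Otp was at 28.8 ± 24.8 CPM in curcumin and 68.9 ± 20.5 CPM in diabetes (-1.26 ± 0.74), or -0.65 without it. Nkx2-1 had an estimate of -0.68 with it and -0.07 without it, so that the lower mean of this gene was almost wholly that of 1 library. Of the 10 factors, 2 had groups that did not overlap, Nr5a1 and Foxd2. Both were lower in curcumin (4.19% of all genes were lower without overlap). Leaving out a library cannot create an overlap, so the fit without curcumin replicate 2 is no check of this. Nr5a1 was at 11.4 ± 9.79 CPM in curcumin and 26.6 ± 5.62 CPM in diabetes (-1.23 ± 0.84), or -0.61 without curcumin replicate 2. Foxd2 had 1 read in curcumin as a whole and 390 in diabetes as a whole. Its level in diabetes was 312 times that in curcumin (95% exact counting interval 55.6 to 12344). The interval covers counting error of the pooled reads only and leaves out the spread between libraries. Foxd2 was the 1 factor below edgeR's adjusted threshold, against 0.0861% of all genes called lower, but its curcumin counts chose it, so nothing is read from that call. That call was lost in 8 of the 12 fits that each left out 1 library, those without curcumin replicate 1 or 3, diabetes replicate 1, 3 or 4, or any control library, and the cause was not tested. The fitted log2 change, which depends on the prior count, stayed between -9.61 and -7.32 in those 12 fits.

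Set against control, the same 3 curcumin libraries had lower estimates for 9 of the 10 and a higher one for Six3, with a median of -0.45, against 0.00 over all genes. That median was -1.86 by limma-voom and -2.78 with the gene number as a covariate. Without curcumin replicate 2 the median was 0.09, with 6 higher and 4 lower. Otp was at 28.8 ± 24.8 CPM in curcumin and 63.4 ± 10.4 CPM in control (SD, n = 3 each, log2 change -1.14 ± 0.77 SE), or -0.59 without that library. Its groups did not overlap, which leaving out a library cannot change. Foxd2 had 1 read over the curcumin libraries and 156 over the control libraries, again without overlap. Its level in control was 150.1 times that in curcumin (95% exact counting interval 26.6 to 5968, counting error of the pooled reads only). Otp and Foxd2 stand beside 5.83% of all genes that were lower without overlap. With edgeR 0 of the 10 were called, as was 0% of all genes, and 1 (Foxd2) had an unadjusted p under 0.05 (2.34% of all genes did). DESeq2 called 1 (Foxd2), where it called 0 genes higher and 5 lower of 25562. By limma-voom 0 of the 10 and 0 of all genes were called. The values behind these counts chose the genes, so nothing is read from them. Foxd2 was at 0 also in curcumin replicates 1 and 3, which held the other 9 factors: the 9 genes without Six3 summed to 140.2 and 144 CPM in them, with Nkx2-1 at 47.6 and 35.2 CPM.

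The genes whose log2 CPM followed the mean of the 10 factors most closely depended on curcumin replicate 2. Over all 12 libraries and 13592 protein-coding genes that averaged at least 1 CPM, the highest Pearson correlations were those of Trh (r = 0.980), Calb1 (0.979), Tac2, Pmch, Gal and Fezf1 (each 0.975), Pdyn (0.973) and Sytl4 (0.970). Trh, Tac2, Pmch, Gal and Pdyn encode neuropeptides or their precursors, Calb1 a calcium buffer of neurons, Fezf1 a ventromedial transcription factor and Sytl4 a vesicle protein. In curcumin replicate 2, Trh was at 1.93 CPM, against 43.1 to 148 CPM in the others, and Sytl4 at 1.44 CPM, against 40.4 to 61.0 CPM. Over the 11 libraries without it, the highest were Lamtor4 (0.986), a lysosomal scaffold subunit, and Ndufa4, Cox8a, Ndufa5, Csnk2b, Mrpl20, Trappc2l and Hint1 (0.978 to 0.972), 4 of which encode mitochondrial proteins. None of these 8 was low in curcumin replicate 2, where Lamtor4 was at 60.9 CPM, against 20.5 to 82.3 CPM, and Ndufa4 at 303 CPM, against 83.1 to 377 CPM. Exons of the 8 ran to 619 to 2067 bases, against a median of 4013 over genes of that level. These correlations over libraries that share groups and depth are descriptions.

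Some of the 10 share their locus with other transcripts, and since no source used here gives the strand setting of the counting, reads of overlapping genes on opposite strands may not be separated. Six3os1, a noncoding transcript that overlaps Six3 on the opposite strand, had 304 counts in curcumin replicate 2, against 125 to 716 in the others, so it was kept there as Six3 was. Gm26973, which overlaps Nkx2-1 on the opposite strand, had 0 counts there, against 24 to 137 in the others. Fgfr2, a growth factor receptor gene that overlaps Hmx2 and Hmx3 on the opposite strand, had 1329 counts in curcumin replicate 2, where both Hmx genes had 0. Foxd2os, which lies within 1 kb of Foxd2 on the opposite strand, had 0, 5 and 29 counts in curcumin replicates 1 to 3, and 0 to 43 in the other groups.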

How the data were processed

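The authors deposited 1 table of raw read counts by gene. Per the labels' protocols, RNA with an integrity number above 7.0 went into stranded poly-A libraries read as pairs of 150 bases; reads were checked with FastQC and counted with featureCounts on GRCm39, per the submitters' processing notes. For aligner, annotation, strand setting and handling of multiply mapped reads, no details were given in the sources used here. Gene names, exon lengths and GC content came from GENCODE M21 on GRCm38, and 51486 of the 78334 IDs (65.7%, 97.8% of counts) matched a symbol. 0 columns were unused. Totals ran from 12950017 to 30271706 counts, and each pair of libraries differed by a chi-square of at least 20.0 per degree of freedom.

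Groups came from sample titles. The labels do not say that libraries are separate animals, so p-values measure the spread between libraries, which may be technical. Genes were filtered with filterByExpr by group (25562 left, all 10 factors among them), scaled by TMM and fitted in 1 model of all 12 libraries with edgeR 4.0.16 in R 4.3.3 (quasi-likelihood F-test, two-sided, Benjamini-Hochberg, threshold 0.05). The SE is the absolute log2 change over the square root of F. The fit was run on simulated counts with a dispersion below the 0.653 estimated here and with no outlying library. That check does not cover these 2 features of the data. Levels are CPM on TMM-scaled totals; RPKM divide these by exon length; the mean used for likeness is over log2 CPM with a prior count of 2. Alternatives were RLE scaling, DESeq2 1.42.0, limma-voom (limma 3.58.1) with library weights, no filter, a filter of at least 1 CPM on the mean, leaving out each library, leaving out curcumin replicate 2 with diabetes replicate 4, a replicate block and a covariate for the genes expected at the lowest depth. The 10 genes, the other gene lists and the tests were chosen with earlier results of these data known. Named genes were all 10, the 4 most abundant of each other list and the 8 most like the 10; the other marker genes of curcumin replicate 2 and the overlapping transcripts were named after their values were seen.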

Additional observations from a re-analysis of the deposited data

Results flagged for a closer look

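Each set of 4 diabetes values was examined for a library far from the other 3, with 26 sets in all (the 10 factors and the summed lists), and 4 were marked, all in diabetes replicate 4. Chance marks about 1 in 20. Pituitary genes summed to 866 CPM in it, against 4.06 to 17.3 CPM in the other diabetes libraries, and blood genes to 1753 CPM, against 264 to 468 CPM. General neuronal genes were lowest in it at 2378 CPM, against 2423 to 2430 CPM, and astrocyte genes highest at 1049 CPM, against 809 to 839 CPM. None of the 10 factors was marked, and the part of these 4 gene sums in the levels of the factors was not tested.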

How the results depend on the processing

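Of 800 values of single factors under 20 alternatives, 752 kept their direction. The count of called factors in curcumin over diabetes was 1, but 4 with no filter on low counts, where 477 genes were called higher and 651 lower of 50209. It was 0 with the stricter filter, where 0 and 2 of 17634 were, and 0 to 1 with 1 library left out. In those fits the calls over all genes ran from 0 higher and 1 lower of 24940, without curcumin replicate 1, to 754 and 1221 of 25358, without curcumin replicate 2. In curcumin over control the count of called factors was 0, but 1 with DESeq2, where 0 genes were called higher and 5 lower of 25562. It was 1 with no filter, where 22 and 21 of 50209 were called, and 0 to 1 with 1 library left out. The 1 came without curcumin replicate 2, where 0 and 49 of 25358 were called. The counts of called factors come from values that chose the genes, and nothing is read from them. With 1 library left out, the median of the 10 ran from -1.70 to -0.58 for curcumin over diabetes, -0.97 to 0.09 for curcumin over control, -0.73 to -0.26 for garlic over diabetes, 0.27 to 0.49 for diabetes over control and -0.10 to 0.25 for garlic over control.

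With the covariate for genes expected at the lowest depth, the median was 3.01 for garlic over diabetes, -1.94 for diabetes over control and 1.06 for garlic over control, and no factor was called in these 3 comparisons. It was -0.89 for curcumin over diabetes and -2.78 for curcumin over control under the same covariate, and -2.40 and -1.86 for these 2 comparisons by limma-voom. Under it the garlic over diabetes value was 3.18 for Nkx2-1, 4.10 for Nkx2-4, 3.13 for Otp, 3.56 for Nr5a1, 2.85 for Six6, 1.29 for Hmx2 and 2.89 for Hmx3. The diabetes over control value was -2.24 for Nkx2-1, -2.66 for Nkx2-4, -2.04 for Otp, -1.84 for Nr5a1, -1.80 for Six6 and -2.47 for Hmx3. Signs also turned for Six3 in garlic over diabetes (-0.00527 with RLE, -0.00574 with DESeq2) and Hmx3 in diabetes over control (-0.54 with limma-voom). With 1 library left out, garlic over diabetes ran from -0.058 to 0.13 for Six3, -0.73 to 0.22 for Otp, -3.18 to 0.11 for Nr5a1, -3.82 to 0.21 for Six6 and -1.10 to 0.24 for Hmx3, and diabetes over control from -0.077 to 0.28 for Otp, -0.23 to 0.12 for Sim1 and -0.70 to 0.45 for Hmx3. The cause was not tested. The lowest adjusted p of a factor in garlic over diabetes or diabetes over control was 0.0606 over every fit.

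Deviations from the group means of same-numbered libraries correlated at -0.179 to 0.252, over 0.1 for 2 of 13 pairs. Deviations within a group are tied to each other, and those of the garlic libraries are mirror images. These values therefore cannot decide whether the shared replicate numbers pair the libraries. With the replicate block, the counts of called factors were as without it, and the medians were -1.44, -0.52, 0.34, -0.99 and 0.15 for curcumin over diabetes, garlic over diabetes, diabetes over control, curcumin over control and garlic over control. Single factors in garlic over control are not reported under the alternatives. The dispersion shared by all genes was 0.653, and a p that misses the threshold at 2 to 4 libraries a group does not show that levels were alike.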
